A study of Mus musculus with 4 samples.

Results

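The cells described here are the B cells that the authors placed in their cluster 1, taken as all rows of the deposited cell table with the annotation B cell and the cluster number 1. They are 996 of 5794 blood cells and 996 of 3130 B cells. The other B cells were 1083 in cluster 0, 964 in cluster 2, 80 in cluster 10 and 7 scattered over further clusters, and 5 cells of cluster 1 that carry another annotation were left out. All 4 mice contributed to cluster 1, with 270 cells of Maus3_2, 368 of Maus6, 113 of Maus2_2 and 245 of Maus4_2 (Maus is German for mouse).

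The mice were female wild-type C57BL/6 animals of 3.2 ± 0.3 months, and all of them were anaesthetized with ketamine and xylazine. In Maus3_2 and Maus6 the left ear was exposed for 10 min to non-thermal plasma (NTP), a partially ionized argon gas, whereas Maus2_2 and Maus4_2 stayed unexposed. Blood was drawn 120 min after the exposure or, in the untreated mice, after anaesthesia had set in, so the interval was counted from a different start in each group. Mononuclear cells were separated on a density gradient, and 1 single-cell 3′ library was made per mouse. The mouse is therefore the replicate (n = 2 per group), and for a single value an exact permutation test gives at least p = 0.33.

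Most B cells in the blood of a mouse are mature follicular cells that circulate between spleen and lymph nodes and carry IgM and IgD on their surface. Their antigen receptor is a membrane immunoglobulin bound to the signalling chains Cd79a and Cd79b, and it acts through the kinases Lyn, Syk and Btk. B cells also take up antigen and present it on MHC class II molecules, which Cd74 escorts through the cell. Younger, transitional B cells reach the blood from the bone marrow and still express genes such as Vpreb3 and Cd24a.

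The study also sequenced small RNAs of ear skin and looked at target genes of its miRNAs in blood cells, and the sequences of 2 of these miRNAs are shown because sites for them were counted in the genes measured in cluster 1. The seed, bases 2 to 8 of the mature miRNA, is in capitals, and both sequences come from the RefSeq table of GRCm38.p6.
mmu-miR-223-3p: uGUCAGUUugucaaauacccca
mmu-miR-451a: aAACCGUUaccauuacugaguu
The former is encoded at chrX:96242884-96242905 and the latter at chr11:78073186-78073207, both on the plus strand. The 2 seeds differ, so the genes with a match to each are counted separately in the account of the treatment.

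Cluster 1 carried the B cell markers. Cd79a had a UMI (unique molecular identifier, which marks 1 captured RNA molecule) in 99.2% of its cells, the B cell surface protein Ms4a1 (CD20) in 67.4% and Ighd, the heavy chain of IgD, in 79.9%. In CD4+ T cells, which should lack these genes, the shares were 2.70%, 0.923% and 0.725%, although their median depth of 4429 UMIs per cell exceeded the 2677.5 UMIs of cluster 1. Cd3e, part of the T cell receptor, was found in 0.201% of the cells of cluster 1. After thinning of each cell to 1000 UMIs, Ms4a1 was found in 37.6% of cluster 1, 37.0% of cluster 0 and 37.1% of cluster 2, and Ighd in 49.4%, 51.9% and 50.2%. The lower unthinned shares of Ms4a1 and Ighd in cluster 1, against 77.0% and 85.4% in cluster 0, thus went with its lower depth. Cd79a, found in 99.9% of cluster 0 and 97.9% of cluster 2 before thinning, was found in 92.2% of cluster 1, 88.7% of cluster 0 and 80.0% of cluster 2 after it. The 3 genes lie at chr7:24897381-24902197 (plus strand), chr19:11249675-11266241 and chr12:113406604-113416324 (both minus strand) of GRCm38 (mm10).

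Markers of other cell types summed to far less than B cell markers in cluster 1, and several did not have the same level in all libraries. In CPM (counts scaled to 1000000 UMIs of a mouse's cluster 1 cells), the 12 B cell markers summed to 27352 to 28377. T cell markers summed to 21.0 and 12.6 CPM in the treated Maus3_2 and Maus6, against 2.78 and 5.52 CPM in the untreated Maus2_2 and Maus4_2. Neutrophil markers reached 127 CPM in Maus6 and at most 1.84 CPM elsewhere, since 129 of 130 UMIs of S100a8 came from 1 cell. Red blood cell markers reached 126 CPM in Maus3_2 and at most 3.89 CPM elsewhere. NK cell markers reached 36.8 CPM in Maus4_2, where 11 of 12 UMIs of the protease Gzma lay in 1 cell. Monocyte markers summed to 231 to 267 CPM. Of the 8 listed, 2 (Csf1r and Fcgr3) were at 0, so the sum came from other members. It was 196 to 237 CPM in cluster 0 and 167 to 231 CPM in cluster 2. Dendritic cell markers summed to 38.9 to 59.7 CPM with Siglech, Itgax and Clec9a at 0. Plasma cell markers summed to 283 to 310 CPM with Jchain at 0, and platelet markers to 16.5 to 37.9 CPM. No cell barcode of cluster 1 was shared between libraries.

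The cells of cluster 1 were the shallowest of the B cells and the richest in transcripts of ribosomal proteins. Their median was 2677.5 UMIs from 1058 genes per cell, compared to 3268 UMIs in cluster 0, 4244.5 in cluster 2 and 4951 in cluster 10. Genes of ribosomal proteins, which build the ribosome and sit in short genes, took 32.3% and 32.8% of the UMIs of cluster 1 in Maus3_2 and Maus6 and 32.2% and 31.8% in Maus2_2 and Maus4_2. In cluster 0 the shares were 25.8%, 26.1%, 27.4% and 26.2% in the same order, and in cluster 2 they were 20.1%, 19.7%, 20.3% and 20.4%. The 4 mice of cluster 1 therefore lay between 31.8% and 32.8%, above every mouse of clusters 0 and 2. As the clusters were formed from these same counts, such differences between clusters describe them and were not tested.

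Genes that span at least 50 kb from start to end showed the opposite order. They took 16.8%, 16.3%, 17.5% and 17.4% of the UMIs of cluster 1 in Maus3_2, Maus6, Maus2_2 and Maus4_2, compared to 23.4% in cluster 0, 30.9% in cluster 2 and 20.8% in cluster 10. The separation held cell by cell: depending on the mouse, 98.5% to 99.7% of the cells of cluster 1 had a lower share of long genes than the median cell of cluster 0. For ribosomal protein genes, 87.8% to 94.8% of the cells lay above that median, and for UMIs per cell 74.3% to 84.5% lay below it. Mitochondrially encoded transcripts, a common gauge of cell damage, took 6.13% of a median cell of cluster 1, against 5.71% in cluster 0, 5.04% in cluster 2 and 6.25% in cluster 10. The nuclear RNA Malat1 took 2.47% in cluster 1 and 3.02%, 3.23% and 2.59% in clusters 0, 2 and 10.

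At matched depth the composition kept its order. Among cells of 2500 to 3500 UMIs, ribosomal protein genes took a median of 32.4%, 32.0%, 30.6% and 29.6% in cluster 1 of Maus3_2, Maus6, Maus2_2 and Maus4_2, and 25.4%, 26.2%, 28.4% and 25.8% in cluster 0. Long genes took 16.4%, 17.1%, 18.3% and 19.5% in these cells of cluster 1 and 22.2%, 23.1%, 22.8% and 24.1% in those of cluster 0. Within cluster 1 the composition still moved with depth, as the rank correlation over cells of UMIs with the share of long genes was 0.42 to 0.50 in the 4 mice. These points share a library, and the 2 shares are parts of the same total.

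**Figure D1:**
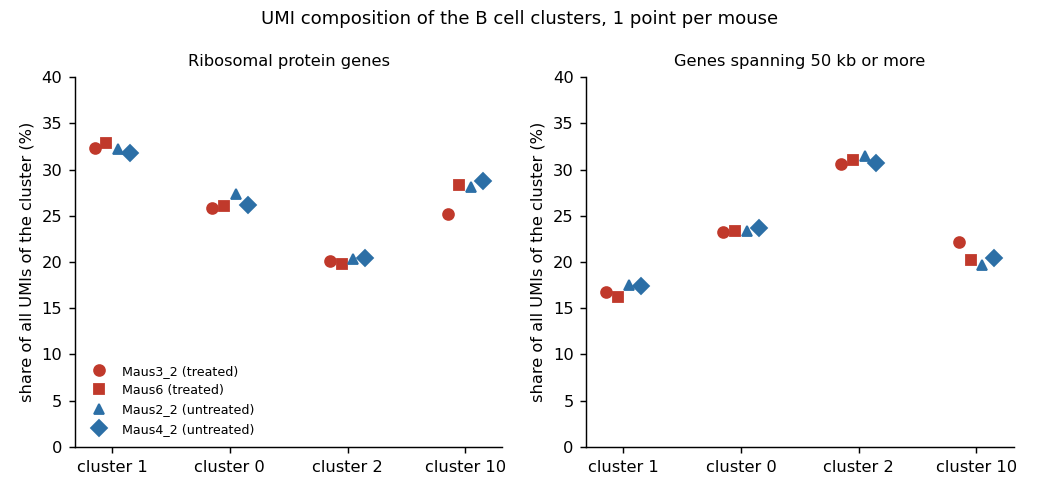
Share of all UMIs in ribosomal protein genes (left) and in genes of at least 50 kb (right), in percent on the y axis, by B cell cluster, with 1 point per mouse (red treated, blue untreated). Cluster 1 is highest on the left, at 31.8 to 32.8%, and lowest on the right, at 16.3 to 17.5%.

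Gene by gene, cluster 1 was compared with the other B cells of the same mouse on the log2(CPM + 5) scale, and a gene was counted as different with a mean difference of at least 1.5-fold, the same sign in all 4 mice and at least 20 CPM on either side. Of 5903 genes compared, 23 (0.39%) were higher in cluster 1 by this rule and 1654 (28%) were lower. The sign alone was positive in all 4 mice for 698 genes (11.8%) and negative for 3130 (53%). In CPM the median gene lay 0.36 below the other B cells, while ribosomal protein transcripts took the larger part of the total described above. With TMM scaling, which sets the middle of the genes level, the median was -0.07 over 5809 genes, and 537 genes (9.24%) were higher and 422 (7.26%) lower. Every log2 difference given here is in CPM and is to be read against the median of -0.36, which is -0.09 with TMM on the same genes. Turns of a list's sign with TMM are stated with the lists.

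The differences were ordered by the length of the genes. Across 5874 genes with an annotated position, the rank correlation of gene span and log2 difference was -0.74, and it stayed at -0.73 without ribosomal protein and mitochondrial genes. Genes under 5 kb had a median of 0.28 (n = 570), genes of 5 to 20 kb -0.02 (1554), genes of 20 to 50 kb -0.40 (1750), genes of 50 to 150 kb -0.61 (1539) and longer genes -0.79 (461). With TMM the medians were 0.57, 0.25, -0.13, -0.33 and -0.51, so the class of 5 to 20 kb turned its sign and the others kept theirs. Against single clusters the correlation was -0.66 for cluster 0, -0.76 for cluster 2 and -0.19 for cluster 10. These are correlations across genes, which are not independent replicates.

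**Figure D2:**
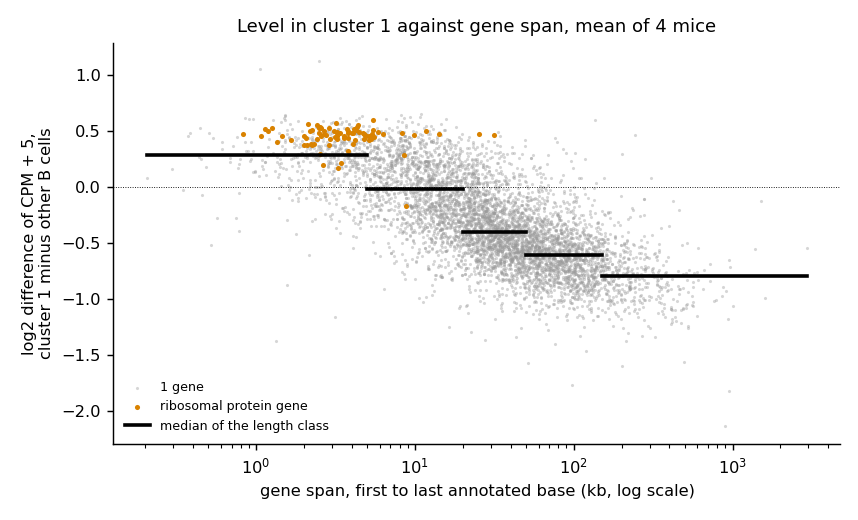
Gene span and the difference between cluster 1 and the other B cells. Each point is a gene, with its span from start to end on a log axis and its mean log2 difference in CPM over 4 mice on the y axis, and the class medians fall from 0.28 under 5 kb to -0.79 at 150 kb and more.

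Among the genes of the antigen receptor, the short signalling chains were high and the long kinase genes low. Cd79a had 2896 ± 130 CPM in cluster 1 (mean ± SD over 4 mice), compared to means of 2332 in cluster 0, 1871 in cluster 2 and 2208 in cluster 10, a log2 difference of 0.47. Cd79b followed with 1420 against 1240 and 992 CPM in clusters 0 and 2. Bank1, an adaptor of the receptor, had 1331 ± 106 CPM against 2247 in cluster 0 and 3148 in cluster 2 (-0.99). Cd81, a membrane protein of the tetraspanin family, had a difference of 0.51. The kinases Lyn (584 against 898 and 1247 CPM) and Syk (709 against 1098 and 1476 CPM) had differences of -0.87 and -0.85, and the protein kinase C gene Prkcb one of -0.89. Of the 27 receptor signalling genes compared, 15 were lower by the 1.5-fold rule and 0 higher, beside 28% and 0.39% of all genes. Their median was -0.61 (-0.32 with TMM). The median span of these 27 genes was 48932 bases.

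Genes of antigen presentation lay higher in cluster 1. The invariant chain Cd74 had 15060 ± 379 CPM, compared to 11536 in cluster 0 and 9155 in cluster 2 (0.56). Of the MHC class II chains, H2-Aa had 4218 CPM against 3298 and 2899 (0.46), and H2-Ab1 had 3386 CPM against 2761 and 2459 (0.39). H2-Oa, a chain that tempers peptide loading, had a difference of 0.54. Ciita, the transactivator of these genes, went the other way with 102 ± 12.4 CPM against 158 and 237 CPM (-0.90). In all, 8 of 11 genes of the list were higher in every mouse and 1 was lower, beside 11.8% and 53% of all genes. The median was 0.40 (0.70 with TMM).

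Fcer2a, Ighd and the general B cell marker Ms4a1 had levels in cluster 1 close to those of clusters 0 and 2, whereas some follicular genes lay lower. Fcer2a (CD23), a marker of follicular B cells, had 349 CPM, with 332 in cluster 0 and 359 in cluster 2, whereas it had 86.8 CPM in cluster 10. Ighd had 708 ± 64.5 CPM against 737 and 760 CPM (-0.05, and 0.26 with TMM), and Ms4a1 had 521 ± 44.9 CPM against 517 and 520 (-0.02, and 0.28 with TMM). Cr2 (CD21), the complement receptor of mature B cells, had 69.2 CPM against 109 and 131 (-0.70). Of 12 follicular genes compared, 0 were higher and 2 lower by the rule, beside 0.39% and 28% of all genes. In every mouse 1 was higher and 5 were lower, beside 11.8% and 53%. The median of the list, -0.15, turned to 0.14 with TMM.

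Of the 8 genes of transitional B cells compared, 5 were higher in every mouse, beside 11.8% of all genes, and 1 of them passed the 1.5-fold rule, beside 0.39%. This was Vpreb3, which pairs with the receptor chains in immature B cells, with 244 ± 38.2 CPM against 185 in cluster 0 and 145 in cluster 2 (0.61). Cd24a had 150 CPM in cluster 1, between the 126 of cluster 2 and the 159 of cluster 0. Cd93, the classic marker of transitional cells, was low everywhere, with 1.98 CPM in cluster 1, 5.81 in cluster 0 and 3.42 in cluster 2. The list had a median of 0.19 (0.47 with TMM) and a median span of 5077.5 bases. Of all genes compared, those under 5 kb had a median of 0.28 and those of 5 to 20 kb -0.02. The part of length in the list's median was not tested. Among 5 marginal zone genes 2 were lower by the rule, and among 11 genes of B-1 and memory cells 4 were lower, beside 28% of all genes. In both lists 0 were higher, beside 0.39%. Their medians of -0.24 and -0.22 turned to 0.02 and 0.03 with TMM.

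Cluster 10, with 7 to 29 cells per mouse, had several genes at levels far from those of cluster 1. The calcium-binding S100a6 ranged from 181 to 2897 CPM over the 4 mice there and from 23.2 to 45.7 in cluster 1. The scaffold Ahnak had a mean of 559 CPM against 54.3, and Plac8 of 1246 against 342. Agbl1 was at the low end of the comparison with all other B cells (-2.14). It had 0 to 11.1 CPM in cluster 1, with means of 31.7 in cluster 0 and 35.5 in cluster 2, and in cluster 10 it had 80.6, 89.0, 0 and 562 CPM in Maus3_2, Maus6, Maus2_2 and Maus4_2, so that the mean there rests on Maus4_2. The transcription factor Sox5 (-1.82) had a mean of 7.23 CPM in cluster 1, compared to 19.5, 28.6 and 326 CPM in clusters 0, 2 and 10. The calcium channel gene Cacna1e was graded, with 54.9 CPM in cluster 1, 132 in cluster 0, 184 in cluster 2 and 330 in cluster 10 (-1.56).

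Ebf1 and Pax5, transcription factors of the B cell lineage, were lower in cluster 1 in CPM and with TMM. Ebf1 had 2372 CPM against 3201 in cluster 0 and 4227 in cluster 2 (-0.63), and Pax5 had 342 CPM against 536 and 741 (-0.88). Klf2, which holds B cells in the recirculating state, was at 1000 ± 202 CPM against 869 and 713 (0.28). Bcl2, an inhibitor of apoptosis, had 137 CPM against 225 and 339 (-1.03). Of 10 survival genes compared 5 were lower by the rule and 0 higher, beside 28% and 0.39% of all genes. Their median of -0.42 lay close to that of all genes.

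The 23 genes higher by the rule came from several groups. Of these, 4 also passed it against cluster 0 alone and 22 against cluster 2 alone. Ifi27l2a, an interferon-induced gene, had 646 ± 90.4 CPM against 464 and 343 (0.65), and Tle5, a corepressor, 305 against 217 and 174 (0.66). Chchd10, a mitochondrial protein, had 238 CPM against 183 and 127 (0.64), and Mrpl12, Mrpl53 and Timm13, also of mitochondria, were among the 23. Ifi27l2a was the only one of 12 interferon-induced genes past the rule, and 4 genes of that list were lower in every mouse, beside 53% of all genes. The median of the list, -0.15, turned to 0.12 with TMM. Of 81 ribosomal protein genes 80 were higher in every mouse and 1, the Rpl7 paralog Rpl7l1, was lower, beside 11.8% and 53% of all genes. Their median was 0.47 (0.78 with TMM). Rps19 alone passed the 1.5-fold rule, with 6298 CPM against 4773 and 3567.

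The remaining lists lay near or above the median of all genes. Immunoglobulin constant genes had a median of 0.12 over 6 genes, of which 4 were higher in every mouse, beside 11.8% of all genes. The kappa light chain Igkc led them with 9087 CPM against 7540 and 5821 (0.44). Mitochondrially encoded genes had 0.14 over 13 genes, oxidative stress genes 0.15 over 13 and heat shock genes 0.17 over 9, with 0 past the rule. Homing genes had -0.20 over 17 (4 lower by the rule), NF-kB genes -0.41 over 12 (2 lower), activation genes -0.08 over 13 (1 lower) and glucocorticoid response genes -0.20 over 11 (2 lower). Over all genes 28% were lower by the rule. RNA quality genes had -0.17 over 6 (0.12 with TMM), and of the germinal centre and cell cycle genes only 2 were compared (-0.13, and 0.14 with TMM). With TMM the medians of homing, activation and glucocorticoid response genes turned positive. More lambda than kappa light chain UMIs were found in 3.61% of the cells of cluster 1 (36 of 996, Wilson 95% interval 2.62 to 4.96%), against 4.34% in cluster 0 and 5.94% in cluster 2.

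**Figure D3:**
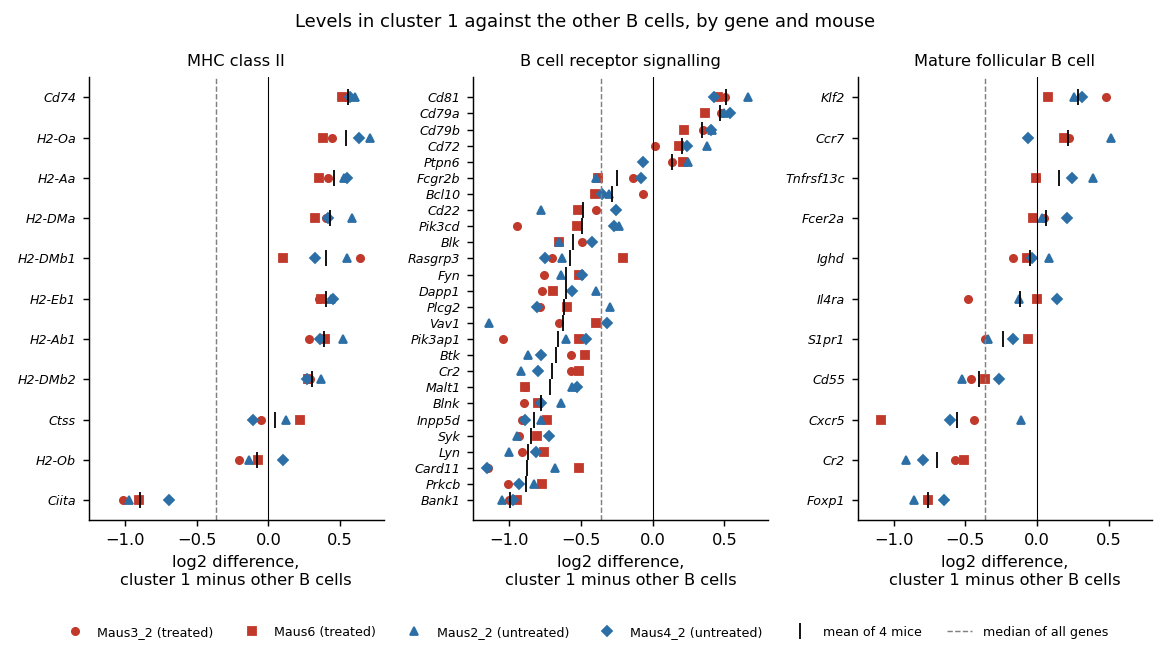
Genes reported from 3 lists (y axis) with the log2 difference of CPM + 5 between cluster 1 and the other B cells (x axis), 1 symbol per mouse (red treated, blue untreated), a black tick for the mean of 4 mice and a dashed line for the median of all genes at -0.36. MHC class II genes but Ciita lie right of the line, from Cd74 at 0.56, and most receptor signalling genes lie left of it, down to Bank1 at -0.99.

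The first comparison by treatment is the share of cluster 1. It held 32.4% (Wilson 95% interval 29.3 to 35.7%) and 38.4% (35.4 to 41.5%) of the B cells of the treated Maus3_2 and Maus6, compared to 22.7% (19.2 to 26.6%) and 29.1% (26.2 to 32.3%) of those of the untreated Maus2_2 and Maus4_2. Both treated mice thus lay above both untreated mice. The mean was 35.4 ± 4.24% against 25.9 ± 4.55% (SD, n = 2), a difference of 9.50 percentage points with a two-sided exact permutation p of 0.33, the smallest this design allows. With a mouse left out the difference was 6.28 to 12.7 points, and among all cells it was 6.17 points. Intervals cover counting error only, and a shift in the boundary between clusters cannot be told apart from a shift in cells.

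Cluster 2 took 34.2% and 19.5% of the B cells in the treated group, compared to 47.0% and 30.7% in the untreated group, so its groups overlapped. Cluster 0, with 30.6% and 38.8% against 28.7% and 37.2%, overlapped as well. These shares add up with that of cluster 1 and are not independent of it.

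**Figure D4:**
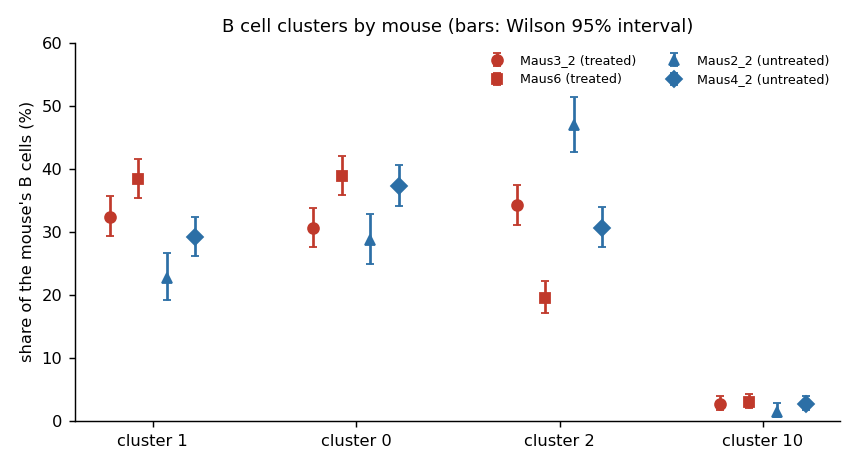
Share of the B cell clusters in each mouse. The y axis gives the percent of a mouse's B cells with Wilson 95% intervals, which cover counting error only; in cluster 1 the treated mice sit at 32.4 and 38.4% and the untreated mice at 22.7 and 29.1%.

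Within cluster 1, few genes separated the treated from the untreated mice beyond their spread. The counts of cluster 1 were summed per mouse, 904416 and 1028428 UMIs in Maus3_2 and Maus6 and 359801 and 543859 in Maus2_2 and Maus4_2, and tested with edgeR's quasi-likelihood test. Of 6526 genes tested, 2 (0.0306%) passed an adjusted p of 0.05, with 1 higher (0.0153%) and 1 lower (0.0153%) in treated mice. At an unadjusted p under 0.05 there were 307 genes (4.7%), 158 higher (2.42%) and 149 lower (2.28%). In 2177 genes (33.4%) the CPM of the 2 groups did not overlap, with both treated mice above in 961 (14.7%) and below in 1216 (18.6%). The test called 37.3% of genes changed by a factor of 2 and 80.3% of those changed by a factor of 4 in counts simulated from these libraries, so smaller changes could be missed.

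Ctla2a, which encodes a small inhibitor of cysteine proteases, was the gene called higher. It passed the filter on low counts only through the treated mice, where it is high, so the call is not independent of that filter. Under the same filter it was not tested for treatment within clusters 0 and 2 or with equal cell numbers. It had 65.2 and 23.3 CPM in Maus3_2 and Maus6, and 5.56 and 0 CPM in Maus2_2 and Maus4_2. The counts behind it were 59 UMIs in 30 of 270 cells and 24 UMIs in 11 of 368 cells, against 2 UMIs in 1 of 113 cells and 0 UMIs in 245 cells, where 0 allows up to 5.52 CPM. The 83 UMIs of the treated against 2 UMIs of the untreated mice give a ratio of 19.4 (exact 95% interval 5.20 to 163, counting error only). The fitted log2 fold change was 4.20 (SE 0.748, adjusted p = 0.00986 in edgeR), a value that depends on the prior count. The fold change stayed positive with a mouse left out, but the call was lost without Maus3_2 (3.32, adjusted p = 0.991), without Maus2_2 (8.17, 0.0507) and without Maus4_2 (2.95, 0.908). It was also lost with limma-voom (adjusted p = 0.179) and with DESeq2 (1.0).

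In clusters 0 and 2, Ctla2a was seen mostly in Maus3_2, whereas CD4+ T cells of all 4 mice held it. Cluster 0 had 23.5 and 1.55 CPM in Maus3_2 and Maus6 with 0 and 1.19 CPM in Maus2_2 and Maus4_2, and cluster 2 had 21.4 CPM in Maus3_2, of which 21 of 30 UMIs lay in 1 cell, and 0 in the other mice. Among CD4+ T cells 6.33% and 2.04% had a UMI of the gene in Maus3_2 and Maus6, compared to 4.32% and 3.03% in Maus2_2 and Maus4_2. In CPM these T cells had 34.6 and 9.17 against 14.2 and 17.4, so the groups overlapped. The T cell markers in cluster 1, at 21.0 and 12.6 against 2.78 and 5.52 CPM, moved in the same direction, and their part in the result was not tested. The gene lies at chr13:60934155-60936625 on the minus strand.

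Gm42418, an annotated transcript that overlaps ribosomal RNA sequence, was the gene called lower. It had 17294 and 14474 CPM in the treated Maus3_2 and Maus6 and 23671 and 20264 CPM in the untreated Maus2_2 and Maus4_2, so the groups did not overlap (log2 fold change -0.45, SE 0.0775, adjusted p = 0.00986 in edgeR). Cluster 0 had 15893 and 13080 CPM in the treated mice, compared to 21498 and 19157 CPM in the untreated mice, and cluster 2 had 14547 and 12134 against 17936 and 16424 CPM. Reads of such repeated sequence cannot be placed with certainty, and the level also varied within each group. The call was lost without Maus6 (adjusted p = 0.143) and without Maus2_2 (0.341). It lies at chr17:39846958-39848788.

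Some large differences came from a single mouse. The histone gene Hist1h2ap had 24.3 and 247 CPM in the treated mice, compared to 19.5 and 34.9 CPM in the untreated mice, and its fold change turned from 2.31 to -0.22 without Maus6. Among 2521 genes of at least 50 CPM, Gm10076 in Maus6 and Nup153 in Maus2_2 were among those that lay at least 2-fold above the other 3 mice, which were within 0.5 of each other on the log2 scale. In Maus2_2, the smallest library, 7 genes lay below by the same rule, and in Maus3_2 only Bloc1s1 did.

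For the other genes reported here among the smallest p-values, the levels of the 2 groups did not overlap, which a small p itself favours. Tagln2, an actin-binding protein, had 200 and 192 CPM in the treated mice, compared to 128 and 131 CPM in the untreated mice (0.62, adjusted p = 0.677 in edgeR). Babam1, a part of a DNA repair complex, had 49.8 and 39.9 against 22.2 and 16.5 CPM. Macf1, which links microtubules and actin, had 343 and 303 CPM in the treated mice, compared to 456 and 482 CPM in the untreated mice (-0.52, SE 0.129, adjusted p = 0.511). Tbc1d5, of endosomal transport, had 172 and 159 against 214 and 285 CPM (-0.59), and the nuclear pore protein Ranbp2 68.6 and 71.0 against 120 and 118 CPM. None of these genes passed the adjusted threshold.

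The identity genes of cluster 1 showed no called difference. Cd79a had 3046 and 2895 CPM in the treated mice, compared to 2729 and 2914 CPM in the untreated mice, and Ms4a1 had 505 and 485 against 506 and 587 CPM. Ighd had 653 and 670 CPM in the treated mice, compared to 798 and 712 CPM in the untreated mice (-0.16, adjusted p = 0.995 in edgeR). The groups overlapped for Cd79a but not for Ms4a1, where 505 and 506 CPM nearly met, and Ighd. Over all genes tested 33.4% had no overlap. In 0 of the 12 B cell markers both treated mice lay above both untreated mice and in 3 below, beside 14.7% and 18.6% of all genes. Of the 12 B cell markers tested, 3 had a positive and 9 a negative fold change, beside 3327 and 3199 of all 6526 genes. Their median was -0.03 beside 0.01 over all genes.

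Genes that respond to stress hormones, oxidants and heat had list medians a little above 0. Their counts of positive fold changes stand beside 3327 of all 6526 genes tested. Of 11 glucocorticoid response genes 7 had a positive fold change, and the median was 0.07. Tsc22d3 (GILZ), induced by glucocorticoids, had 760 and 600 CPM in the treated mice, compared to 611 and 462 CPM in the untreated mice (0.38). Of 16 oxidative stress genes 9 had a positive fold change, with a median of 0.15. Both treated mice lay above both untreated mice for the glutathione peroxidase Gpx1 (161 and 201 against 122 and 143 CPM), for thioredoxin Txn1 (102 and 102 against 63.9 and 73.5 CPM) and for Sqstm1, and below them for the thioredoxin reductase Txnrd1 and the superoxide dismutase Sod1. These 3 genes above and 2 below stand beside 14.7% and 18.6% of all genes. Of 9 heat shock genes 8 had a positive fold change, with a median of 0.14, while Hsf1, the factor that switches them on, had 13.3 and 25.3 CPM in the treated mice, compared to 44.5 and 38.6 CPM in the untreated mice (-1.03). No gene of these lists passed the adjusted threshold. With a mouse left out the medians of oxidative stress and heat shock genes stayed positive, and that of glucocorticoid response genes went from -0.24 to 0.29. In clusters 0 and 2 of the same mice, heat shock genes had medians of 0.17 and 0.12. Oxidative stress genes had -0.06 and -0.03 there, and glucocorticoid response genes -0.05 and 0.03.

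Genes of activation, trafficking and interferon response had list medians of 0.12, 0.06 and -0.16. Most list medians given here changed sign when a mouse was left out, but that of activation genes stayed positive (0.0055 to 0.24). Of 13 activation genes 9 had a positive fold change (median 0.12), and of 27 receptor signalling genes 13 did (-0.02). These counts and those below stand beside 3327 positive and 3199 negative fold changes among all 6526 genes tested. Pik3ap1, an adaptor between the receptor and PI3K, had 76.3 and 90.4 CPM in the treated mice, compared to 122 and 114 CPM in the untreated mice. Klf2 had 1304 and 906 against 901 and 890 CPM, a difference carried mainly by Maus3_2. Of 15 interferon-induced genes 11 had a negative fold change (median -0.16). Among them Ifit3 had 4.42 and 5.83 CPM in the treated mice, compared to 13.9 and 16.5 CPM in the untreated mice. These levels rest on only 4 and 6 against 5 and 9 UMIs. Ifit3 passed the filter on low counts only through the untreated mice and was not tested for treatment within clusters 0 and 2. MHC class II genes (8 of 12 positive, median 0.03), homing genes (11 of 17, 0.06), NF-kB genes (8 of 14, 0.11) and survival genes (4 of 11, -0.06) held 0 called genes. The same was true of follicular genes (5 of 12, -0.01), transitional genes (4 of 8, 0.04), genes of B-1 and memory cells (7 of 11, 0.28) and immunoglobulin constant genes (4 of 6, 0.05).

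Ribosomal protein genes had a positive fold change in 73 of 81 cases, beside 3327 of all 6526 genes tested, with a median of 0.05. In 17 of the 81 both treated mice lay above both untreated mice and in 2 below, beside 14.7% and 18.6% of all genes tested. In cluster 0 of the same mice the median was -0.06 and in cluster 2 it was -0.04. The fold change in cluster 1 also moved with gene span. Across 6495 genes the rank correlation of span and log2 fold change was -0.15, and over the 1170 genes with a mean level of at least 100 CPM it was -0.38. The class medians went from 0.08 under 5 kb to -0.08 at 150 kb and more. In clusters 0 and 2 of the same 4 mice, the correlation over 6444 and 6446 genes was -0.10 and -0.12, beside the -0.15 of cluster 1. For genes of at least 100 CPM it was not computed in those clusters.

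**Figure D5:**
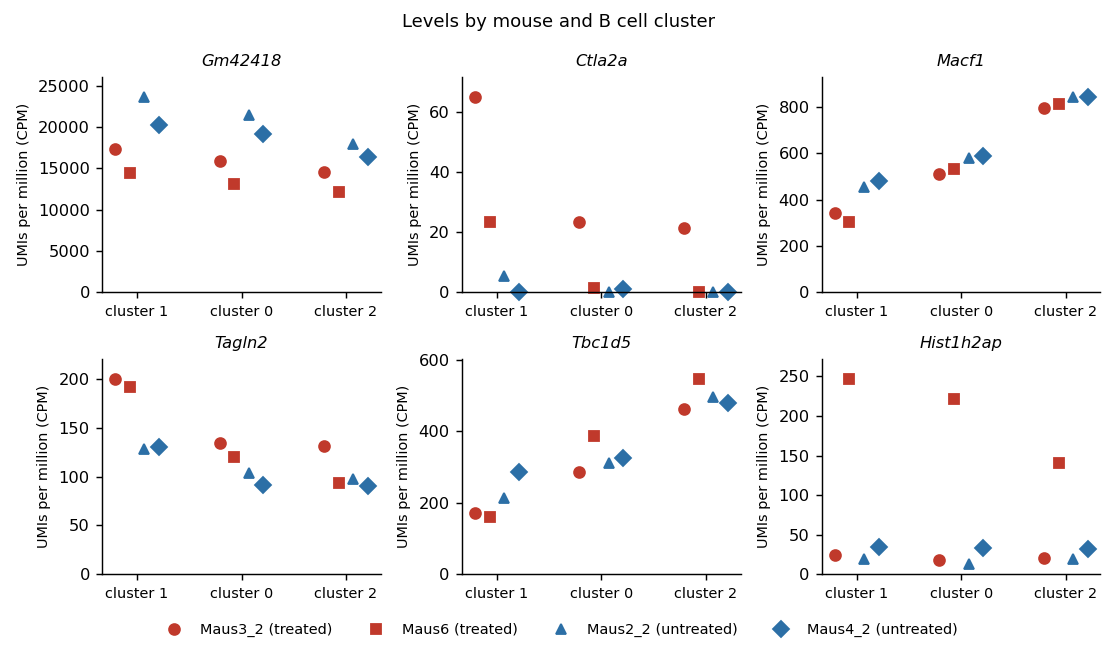
Levels of 6 genes in CPM (y axes, from 0) by B cell cluster, with 1 symbol per mouse (red treated, blue untreated). Cluster 1 shows Gm42418 lower in both treated mice, Ctla2a at 65.2 CPM in Maus3_2 and 23.3 in Maus6, and Hist1h2ap high in Maus6 alone, at 247 CPM.

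The 15 target genes of miR-223-3p and miR-451a named by the study were tested in cluster 1 as well. The study reported some of these genes as changed in B cells and others in CD4+ or CD8+ T cells. All 15 were chosen on these samples, so their direction is not independent evidence. In cluster 1, 6 had a positive and 9 a negative fold change (median -0.08), beside 3327 and 3199 of all 6526 genes. In 2 both treated mice lay above and in 5 below both untreated mice (14.7% and 18.6% of all genes), and 0 were called. Macf1 (chr4:123349633-123684360, minus strand), with the values given above, had no match to either seed in its 3′ UTR. Rgs2 (chr1:143999338-144004161, minus strand), a regulator of G protein signalling with 1 match to the seed of miR-223-3p, had 17.7 and 31.1 CPM in the treated mice, compared to 41.7 and 55.2 CPM in the untreated mice (-0.97). Camk1d, a calcium-dependent kinase with 1 match to each seed, had 1148 and 1150 against 1479 and 1295 CPM (-0.24). Mif, a cytokine (chr10:75859353-75860240, minus strand), had 189 and 190 against 108 and 149 CPM (0.55, adjusted p = 0.966 in edgeR). Compared to the other B cells without regard to treatment, 8 of the 15 genes were lower in cluster 1 by the 1.5-fold rule and 0 higher, beside 28% and 0.39% of all genes. Their median was -0.62 (-0.32 with TMM), and their median span was 76071 bases.

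Of 6271 tested genes with an annotated 3′ UTR, 674 (10.7%) held AACTGAC, the match to the seed of mmu-miR-223-3p, on the strand of the mRNA. Their median log2 fold change was -0.03 against 0.01 in genes without it, and 53.3% against 48.8% were lower in treated mice. The 130 genes (2.07%) with AACGGTT, the match to mmu-miR-451a, also had a median of -0.03 against 0.01. Genes with a match were longer, with a median span of 44914 against 26581 bases for miR-223-3p and of 42839 against 27799 bases for miR-451a, and 0 genes of either set were called. The part of length in the difference was not tested, and a match of letters does not show that a site is used.

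Whether the treatment difference of a gene was another in cluster 1 than in clusters 0 and 2 was tested as an interaction with the mouse as a block. Of 8385 genes tested 0 (0%) passed the adjusted threshold in edgeR, and 417 (4.97%) had an unadjusted p under 0.05. The alternatives also called 0 genes, with 321 to 602 at an unadjusted p under 0.05. Rgs2 and Tbc1d5 had the smallest adjusted p of 0.223. For Rgs2 the groups lay in opposite order, with 17.7 and 31.1 against 41.7 and 55.2 CPM in cluster 1, 41.0 and 37.2 against 27.4 and 33.4 CPM in cluster 0, and 50.7 and 51.2 against 24.3 and 33.0 CPM in cluster 2. Its interaction was -1.56 on the log2 scale (SE 0.372). Ctla2a and Gm42418, called in cluster 1, were not shown to differ from the other clusters by this test.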

How the data were processed

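Cell Ranger 7.1.0 and Seurat 4.3.0 are named in the submitters' processing notes, with mm10 as the genome. The authors deposited a table of raw UMI counts of 15093 genes (66 without a count) in 5794 cells, and a table of cell type, cluster, depth and mitochondrial share in percent, also deposited by the authors. The study's methods describe removal of ambient RNA with SoupX, filters on genes and mitochondrial share, and removal of doublets; for the step of SoupX in these counts, and for the counting of intronic reads, the answer was not given in the sources used. No doublet caller was run again, and the number of unused sample columns was 0. The miRNA samples were not analysed here. Members, gene lists and tests were chosen with earlier results of these data known.

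Counts of cluster 1 were summed per mouse. edgeR 4.0.16 (R 4.3.3) tested treatment with TMM scaling, its filter on low counts and Benjamini-Hochberg adjustment at 0.05. The interaction was fitted with the mouse as a block over clusters 0, 1 and 2. DESeq2 1.42.0, limma-voom (limma 3.58.1), RLE scaling, no filter, equal cell numbers and leaving out each mouse were alternatives. CPM are scaled to all UMIs of a mouse's cells in a cluster. Cluster 1 was set against the other B cells as log2(CPM + 5), without a test. Genes named are members of the gene lists (up to 4 per list for treatment), the 12 highest and 12 lowest past the 1.5-fold rule against the other B cells, every gene called for treatment and otherwise the 6 smallest p per direction, and the 3 smallest per direction for the interaction. Other genes, such as those of cluster 10, of single mice, and Mrpl53, Timm13, Rpl7l1 and Rps19, were chosen after their values were seen. Immunoglobulin variable segments were not named, and single values of some genes that entered the tests and counts are not reported here. Spans and 3′ UTRs come from GENCODE vM21 (GRCm38), which matched 14891 genes. The fits were tested on simulated counts.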

Additional observations from a re-analysis of the deposited data

How the results depend on the processing

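The 2 genes called for treatment in cluster 1 became 8 without a filter on low counts, 1 with equal cell numbers, 1 with limma-voom and 0 with DESeq2, and 0 to 10 with a mouse left out (10 without treated replicate 1, Maus3_2, and 0 without untreated replicate 1, Maus2_2). Ctla2a was not called by DESeq2 (adjusted p = 1.0) or limma-voom (0.179), and Gm42418 was called by limma-voom (0.000122) but not by DESeq2 (0.206). The log2 fold change of Hist1h2ap (-0.22) turned without Maus6, and with a mouse left out it spanned -0.22 to 3.15. The 23 genes higher in cluster 1 became 42 with a pseudocount of 1, 4 with 20, 36 without a minimum level, 92 after thinning, 8, 263 and 288 against cluster 0, 2 or 10 alone and 537 with TMM, and 22 to 45 with a mouse left out. The 1654 lower genes became 861 with a pseudocount of 20, 617 and 624 against cluster 0 or 10 alone and 422 with TMM, and 1684 to 1734 with a mouse left out. With equal cell numbers, the median log2 fold change by treatment was 0.23 in marginal zone, -0.050 in B-1 and memory, -0.43 in germinal centre and cell cycle, -0.11 in receptor signalling, -0.16 in NF-kB, -0.052 in MHC class II, 0.078 in ribosomal protein and 0.14 in RNA quality genes, and without a filter it was 0.21 in oxidative stress and 0.083 in ribosomal protein genes. With a mouse left out it spanned -0.041 to 0.066 in receptor signalling, -0.048 to 0.26 in B-1 and memory, -0.039 to 0.033 in MHC class II, -0.078 to 0.19 in NF-kB, -0.075 to 0.018 in RNA quality, 0.035 to 0.087 in ribosomal protein, -0.26 to 0.51 in germinal centre and cell cycle, -0.24 to 0.29 in glucocorticoid response, 0.062 to 0.33 in heat shock, -0.057 to 0.19 in immunoglobulin constant, -0.17 to 0.0022 in interferon-induced, -0.032 to 0.32 in marginal zone, -0.063 to 0.11 in follicular, -0.15 to 0.14 in miRNA target, -0.024 to 0.084 in mitochondrially encoded, 0.16 to 0.33 in oxidative stress and -0.095 to 0.031 in survival genes. The causes were not tested. The interaction had 0 called genes with the mouse as replicate block and also with no replicate block, where 321 genes had an unadjusted p under 0.05. No paired analysis was possible for the treatment itself because each mouse belongs to 1 group and the replicate numbers only name the mice. The summed counts limit Maus2_2 most, with 113 cells and 359801 UMIs. By median UMIs per cell Maus4_2 was the shallowest, with 2109 against 3129 in Maus2_2.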
